A study of Mus musculus with 12 samples.

Results

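The genes described here encode the subunits of RNA polymerases I, II and III. They were chosen by name, as every gene of the deposited table whose symbol starts with Polr1, Polr2 or Polr3, and no symbol marked as a pseudogene by "-ps" was among them. The rule gave 28 of 37187 genes, and the rule itself uses no measured value. They were measured in LSK cells (lineage-negative, Sca-1-positive, c-Kit-positive), the bone marrow fraction that holds the stem and multipotent progenitor cells of mouse blood. The groups were wild-type (WT), Tet2 knockout (Tet2 KO), Traf6 knockout (Traf6 KO) and Tet2;Traf6 double knockout (dKO), with 3 libraries each. The dKO carries both deletions, WT carries neither, and no further agent or allele was named. The promoter that drives a deletion, the deleted exons, the age and sex of the mice and whether libraries came from separate animals are not given in the sources used here. The p-values below therefore speak of the spread among libraries, and that spread may be technical.

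The 3 nuclear RNA polymerases divide the work of transcription. Polymerase I makes the large ribosomal RNA precursor, polymerase II makes messenger RNAs and many small nuclear RNAs, and polymerase III makes transfer RNAs, 5S ribosomal RNA and other short RNAs. Each is built on a pair of large subunits that form the catalytic cleft, with a ring of small subunits around it, some of which belong to 1 enzyme and some to several. The series is titled for an action of TRAF6 on MYC, and MYC is known to raise the output of all 3 polymerases in growing cells, which makes the supply of their subunits a natural set of genes to read here. TET2 oxidises methylated cytosine in DNA, and TRAF6 is a ubiquitin ligase of innate immune signalling.

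By role, 3 of the 28 genes encode subunits of polymerase I alone (Polr1a, Polr1b, Polr1e) and 2 encode the pair shared by polymerases I and III (Polr1c, Polr1d). Another 5 encode the subunits common to all 3 enzymes (Polr2e, Polr2f, Polr2h, Polr2k, Polr2l). Polymerase II alone uses 7 (Polr2a, Polr2b, Polr2c, Polr2d, Polr2g, Polr2i, Polr2j), and Polr2m encodes GDOWN1, a protein that binds polymerase II and is not a core subunit. The remaining 10 belong to polymerase III, among them Polr3a to Polr3g, Polr3gl and Polr3k. All 28 passed the filter on low values (10 or more in 3 or more libraries), as did 14045 genes in all. Values are the authors' normalised signal, reads scaled by 1 size factor for each library, and a single read was worth 0.518 to 1.79 signal units.

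Recovered reads numbered 22169673 to 53921402 per library. The targeted genes were read first. Traf6 stood at 1935 to 3006 in WT, at 2474, 854 and 568 in the libraries labelled Traf6 KO 1, 2 and 3, and at 799 to 1313 in dKO. Tet2 stood at 525 to 783 in WT, at 668, 403 and 486 in the libraries labelled Tet2 KO 1, 2 and 3, and at 197 to 326 in dKO, so that the first library of each single knockout held its targeted gene within the WT range. Xist was at 990 to 3826 in every single-knockout library and never above 17 in WT or dKO, so each comparison except dKO against WT also set sexes apart, and sex and genotype cannot be told apart there. The library labelled Traf6 KO 1 held both Xist and the Y-linked Eif2s3y (1574 and 1524), while the other single-knockout libraries had Eif2s3y at 55.4 or less. Counts of limma calls in dKO against each single knockout are given with and without the first libraries of the single knockouts. For named genes both are given in some cases only. Kit, which encodes the c-Kit of the gate, was at 44484 to 47837 in WT and at 11935, 4099 and 4105 in dKO, while Ly6a (Sca-1) was at 1990 to 2339 in WT and 1968, 2446 and 13218 in dKO. The summed signal of 4 T cell markers was at most 100.4 in any library with Cd3e at 0 throughout, that of 3 B cell markers at most 695, and that of 3 stromal and endothelial markers at most 58.9. Granulocyte and monocyte markers (3 genes) summed to 1049 to 1652 in WT and 896 to 2020 in dKO. In Tet2 KO and Traf6 KO they summed to 1046 to 1349 and 815.8 to 1416. The sum of 2 erythroid markers was 214 to 331 in WT and 640 to 1305 in dKO. That sum reached its highest value in Tet2 KO (651.5 to 6384) and ran from 142.8 to 677.5 in Traf6 KO. The part of these other cells in the results was not tested, and in bulk RNA fewer cells of a type and less RNA per cell cannot be told apart.

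A property of the whole dKO group touches every result below. In dKO, genes with short transcripts stood high and genes with long transcripts stood low: the rank correlation of a gene's log2 value, relative to its WT mean, with transcript length was -0.54, -0.62 and -0.64 in the 3 dKO libraries and -0.41 to 0.31 in the other libraries. In dKO replicate 3 the median gene of at most 1000 nt stood 2.89 log2 units over WT, and the total signal was 39973892, against 25557760 to 28916082 in the other 11 libraries. Counts of limma calls among the subunit genes are therefore given for the values as deposited and again after a smooth trend on transcript length and GC content had been subtracted, library by library, while counts of groups that do not overlap are as deposited. The targeted genes have long transcripts themselves (Tet2 9179 nt, Traf6 6169 nt). In dKO against WT, Tet2 was at -1.39 log2 units as deposited and 0.11 with the trend taken off (limma adjusted p = 0.00659 and 0.769). Traf6 was at -1.36 and -0.06 (limma adjusted p = 0.0278 and 0.938). The low dKO signal of the targeted genes therefore depends on the length correction and cannot by itself show the deletions. Whether the trend is technical or biological was not tested.

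MYC binds the E-box, so the promoters of the subunit genes were read for its letters. Myc itself stood at 19394 ± 534 in WT and 25425 ± 5056 in dKO (SD, n = 3). Its log2 change was 0.37 as deposited (limma adjusted p = 0.214) and -0.55 with the length and GC trend taken off (limma adjusted p = 0.291). No direction is therefore given for Myc. RefSeq windows of GRCm38.p6, from 250 bases before to 50 bases after a start site, were at hand for 22 of the 28 genes. The palindromic E-box CACGTG, which reads the same on both strands, was in a window of 4 of the 22 (18.2%), against 11.7% of 9433 tested genes with a window and 7.2% of all 32851 windows. The 4 windows are shown because they hold the letters that MYC binds, with the E-box in capitals and the sequence on the gene's own strand: Polr2h (shared by all polymerases, chr16:20717576-20717875, plus strand), Polr3c (chr3:96727390-96727689, minus strand), Polr3e (chr7:120917528-120917827, plus strand) and Polr3gl (chr3:96594132-96594431, minus strand), the last 3 being polymerase III genes.
Polr2h: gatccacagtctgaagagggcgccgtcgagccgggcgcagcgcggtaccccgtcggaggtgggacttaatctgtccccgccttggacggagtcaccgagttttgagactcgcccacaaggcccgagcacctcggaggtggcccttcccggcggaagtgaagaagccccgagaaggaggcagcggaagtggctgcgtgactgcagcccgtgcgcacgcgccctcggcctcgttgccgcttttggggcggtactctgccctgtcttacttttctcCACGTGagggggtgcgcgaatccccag
Polr3c: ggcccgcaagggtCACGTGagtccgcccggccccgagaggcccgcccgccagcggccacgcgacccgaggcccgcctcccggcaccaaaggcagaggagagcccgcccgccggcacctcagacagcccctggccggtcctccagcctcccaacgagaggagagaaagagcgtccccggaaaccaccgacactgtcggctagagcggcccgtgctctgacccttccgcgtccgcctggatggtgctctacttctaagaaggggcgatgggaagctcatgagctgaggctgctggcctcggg
Polr3e: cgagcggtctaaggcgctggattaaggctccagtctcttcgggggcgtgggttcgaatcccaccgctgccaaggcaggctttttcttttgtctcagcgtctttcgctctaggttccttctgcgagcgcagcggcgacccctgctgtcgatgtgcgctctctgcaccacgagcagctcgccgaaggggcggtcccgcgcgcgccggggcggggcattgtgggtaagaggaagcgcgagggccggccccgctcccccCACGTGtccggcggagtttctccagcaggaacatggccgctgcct
Polr3gl: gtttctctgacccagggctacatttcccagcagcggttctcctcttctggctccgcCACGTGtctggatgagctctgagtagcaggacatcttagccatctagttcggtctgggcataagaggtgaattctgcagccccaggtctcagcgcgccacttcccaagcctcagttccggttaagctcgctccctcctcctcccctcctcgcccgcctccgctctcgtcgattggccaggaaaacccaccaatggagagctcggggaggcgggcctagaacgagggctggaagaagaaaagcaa
The E-box began 24 bases into the transcript in Polr2h and 6 bases into it in Polr3e, and 237 and 194 bases before the start in Polr3c and Polr3gl. In dKO as deposited, Polr2h and Polr3gl were called higher, Polr3e lower and Polr3c neither way, and none of the 4 was called once the trend with transcript length was taken off. The window of Polr3e also held most of n-TLaag4, a leucine transfer RNA gene (chr7:120917517-120917598) and thus a polymerase III gene beside the start of a polymerase III subunit gene. Other motifs searched on both strands were the ETS core CCGGAAGT, in 5 of the 22 genes (Polr1c, Polr1e, Polr2f, Polr2j, Polr3b; 22.7% against 8.8% of tested genes), and TATAAA, in Polr2a and Polr2c (9.1% against 9.0%). The palindromic NRF1 site was in a window of 0 of the 22 genes (2.3% of tested genes). These matches describe the windows only.

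In WT the subunit transcripts were far from equal in amount. Per 1000 nt of transcript, Polr2m was the most abundant (4936 ± 62.9, SD, n = 3), followed by Polr2e (3200 ± 578), which encodes a subunit of all 3 enzymes, then Polr2d (2263 ± 566) and Polr2b (2147 ± 88.5) of polymerase II. The ranges of Polr2d and Polr2b overlapped, while that of Polr2m (4896 to 5008) stood above every other subunit gene. The catalytic subunit of each enzyme lay in the lower part of the order: Polr2a at 443.8 ± 121.7, Polr1a at 262.7 ± 102 and Polr3a at 239.5 ± 30.3 per 1000 nt, and the last pair overlapped. At the bottom were Polr2l (164.3 ± 24.3), Polr3gl (152.7 ± 33.9) and Polr2k (31.8 ± 19.5). Polr2k rested on few reads, 6 to 81 per library. It encodes the smallest shared subunit, and a transcribed pseudogene matched 330 of its 489 nt at 96.4% identity.

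**Figure D1:**
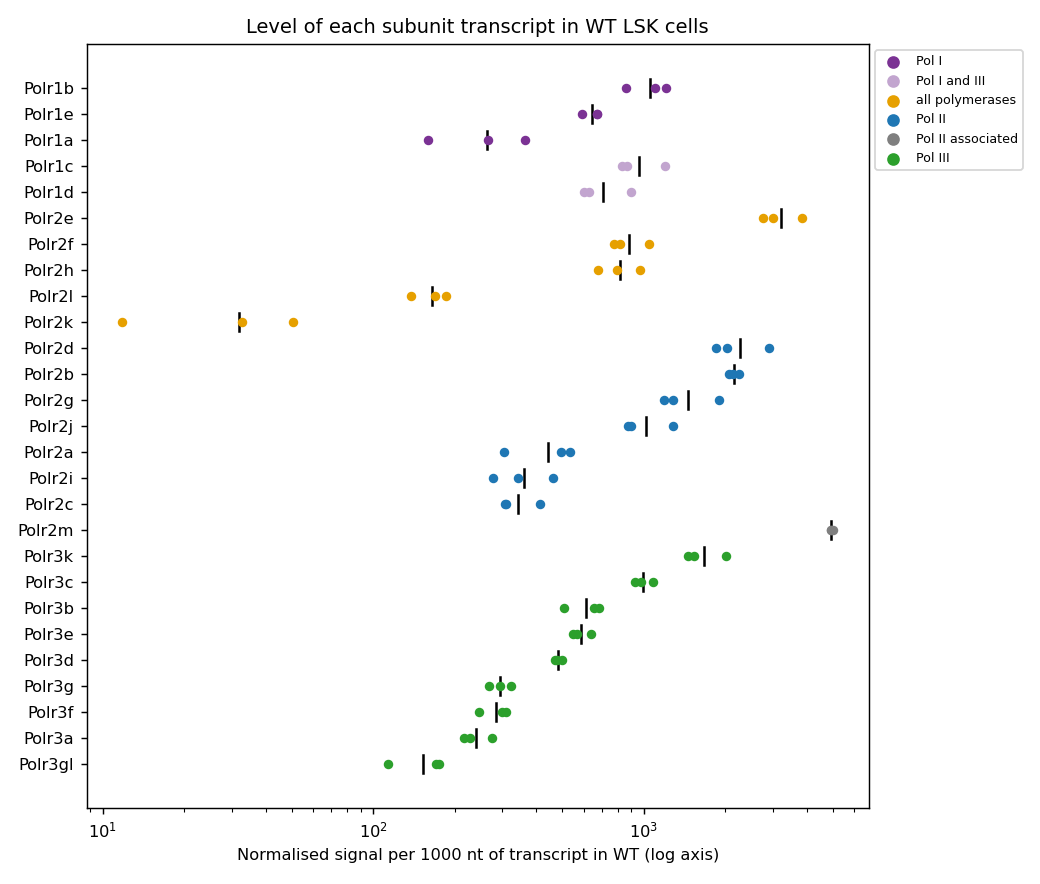
Level of subunit transcripts in WT LSK cells, as normalised signal per 1000 nt of transcript on a log axis. Points are the 3 WT libraries, black ticks their mean, colours the polymerase; Polr2m (4936) and Polr2k (31.8) mark the ends of the order.

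Loss of Tet2 alone moved no subunit gene past the threshold. Of the 28 genes, 0 were called higher and 0 lower in Tet2 KO against WT by limma with Benjamini-Hochberg adjustment, where 0.107% of all tested genes were called higher and 0.306% lower. At an unadjusted p under 0.05 there was 1 (Polr3gl). On recovered reads, edgeR called 0 and DESeq2 called 1, again Polr3gl. Groups that did not overlap were found for 2 higher genes (Polr3d and Polr3gl; 8.07% of all tested genes) and 1 lower gene (Polr2a; 11.1%). The median log2 change of the 28 was 0.09. Polr2a, the catalytic subunit of polymerase II, was at 2057, 3323 and 3594 in WT and at 1952, 1368 and 1743 in Tet2 KO. The groups did not overlap, yet the difference of -0.80 log2 units (SE 0.39, limma adjusted p = 0.623) did not pass. After the length and GC trend was taken off, the 28 changes ran from -0.21 to 1.22, with 0 calls higher (0.146% of all genes with a length) and 0 lower (0.344%).

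Loss of Traf6 alone gave 0 genes higher and 0 lower by limma (0.0783% and 0.192% of all tested genes). No subunit gene had an unadjusted p under 0.05, edgeR and DESeq2 called 0, and the largest changes were Polr2k at 0.87 (adjusted p = 0.808, limma) and Polr3gl at 0.61 (adjusted p = 0.636). Non-overlapping groups were seen for 2 of the 28, both higher (Polr3gl among them, against 9.68% of tested genes), and for no lower gene (11%). The median log2 change was 0.10. After the trend was taken off there were again 0 calls higher (0.176%) and 0 lower (0.263%).

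As deposited, subunit genes of all 3 enzymes were called in dKO against WT: 15 of the 28 subunit genes were higher and 7 lower by limma, where 21.9% of all tested genes were higher and 26.5% lower, and 6 passed in neither direction. When only the WT and dKO libraries were fitted, 11 were higher and 5 lower (15.9% and 22.8% of all genes in that fit). The groups did not overlap for 17 higher genes (27.9% of all tested genes) and 7 lower ones (30.5%). By enzyme, the higher and lower calls were 1 and 2 of 3 for polymerase I, 2 and 0 of 2 for the pair shared by I and III, 4 and 0 of 5 for the subunits of all enzymes, 5 and 2 of 7 for polymerase II, and 3 and 3 of 10 for polymerase III. The median log2 changes of these classes, in the same order, were -1.75, 1.35, 1.67, 1.44 and -0.04, and without dKO replicate 3 they were -1.48, 0.82, 1.04, 0.94 and 0.12. Polr2m was called in neither direction. With the length and GC trend taken off, 4 genes were higher (among them Polr1e, Polr3k and Polr2e) and 1 lower (Polr1b), where 14.3% and 10.7% of 13670 tested genes with a known length were called. The 4 higher genes are 14.3% of the 28, the same share as among all genes, and the 1 lower gene is 3.57%. By enzyme the calls were then 1 and 1 for polymerase I, 0 and 0 for the pair shared by I and III, 1 and 0 for the subunits of all enzymes, 0 and 0 for polymerase II and 2 and 0 for polymerase III. Equal library totals, which move the median log2 change of all genes from -0.09 to -0.34, gave 13 higher and 7 lower (16.3% and 29.6% of all genes). The class medians without the trend were -0.02, 0.30, 0.53, 0.48 and 0.01.

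**Figure D2:**
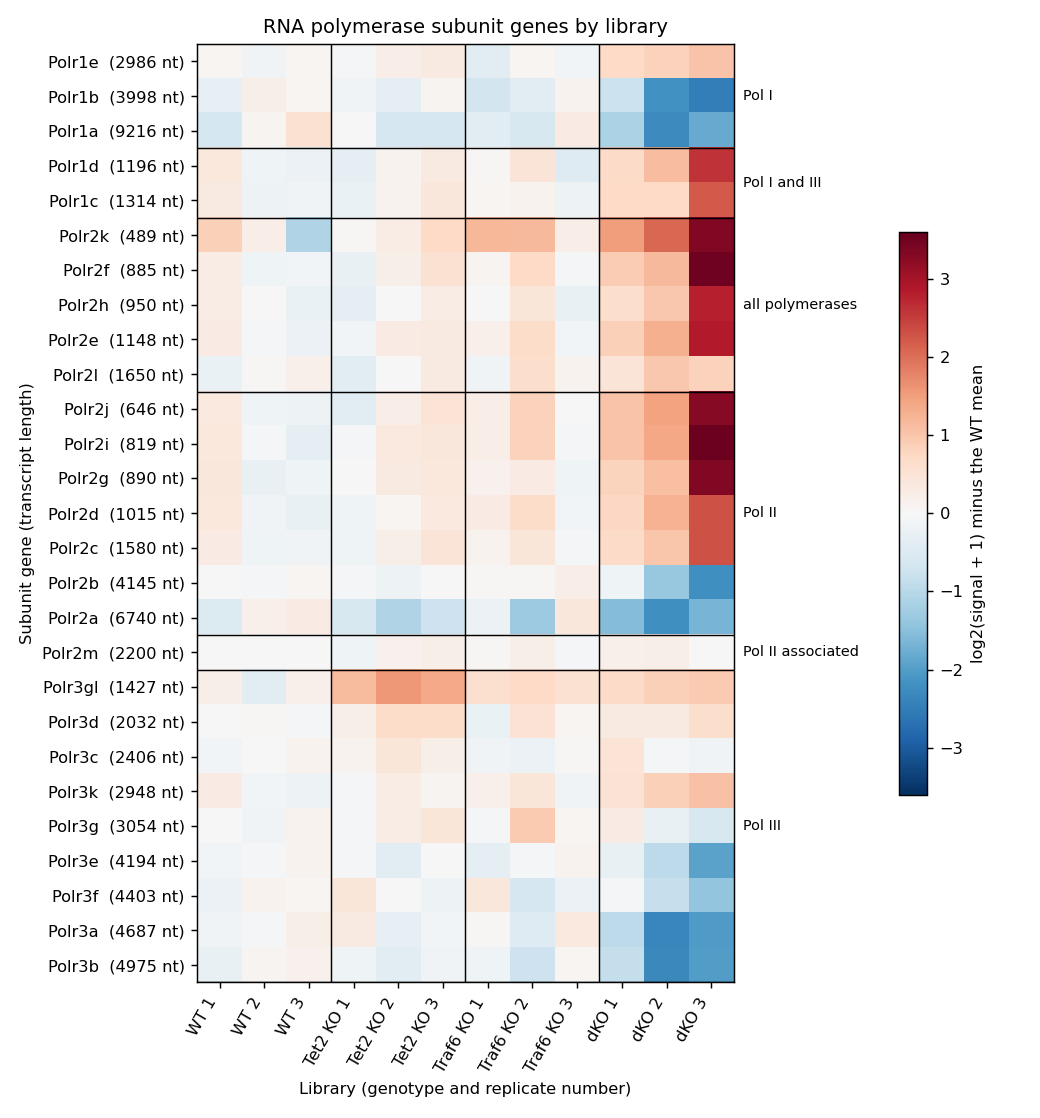
Level of subunit genes (rows, by enzyme and transcript length) in each library (columns), as log2(signal + 1) minus the WT mean of that gene; red is above WT, blue below. The 3 dKO columns show both colours within an enzyme, with the short transcripts above WT and the long ones below; the median of those up to 2000 nt is highest in dKO replicate 3 (2.80).

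As deposited, the large subunits fell in all 3 enzymes. Polr1a, which encodes the catalytic subunit of polymerase I (chr6:71909053-71984935, GRCm38), had signals of 1468, 2447 and 3347 in WT, 2327, 1514 and 1504 in Tet2 KO, and 1735, 1534 and 2838 in Traf6 KO. The dKO signals were 1039, 471 and 649. Every dKO library lay below all 9 others, and dKO was 3.36-fold below WT (log2 -1.75, SE 0.37, limma adjusted p = 0.00299). Polr1b, its partner in the catalytic cleft, was at 3429, 4843 and 4401 in WT and 2465, 914 and 745 in dKO, 3.51-fold lower (adjusted p = 0.00266, limma). Its single-knockout libraries (2635 to 4581) all stood above the dKO range.

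Polr2a (chr11:69733997-69758637), whose product carries the heptad-repeat tail of polymerase II, was at 988, 631 and 917 in dKO, below the WT values given above and below the Traf6 KO values of 2498, 1165 and 3890. It was 3.50-fold below WT (log2 -1.81, SE 0.39, limma adjusted p = 0.00299). Polr2b, the second large subunit of polymerase II, was at 8837, 8565 and 9291 in WT and 8053, 3433 and 1911 in dKO. It was 2.37-fold lower (limma adjusted p = 0.0151), with dKO replicate 1 near the lowest WT library and the other 2 far below it.

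Polr3a (chr14:24448696-24487058), the catalytic subunit of polymerase III, was at 1016, 1068 and 1284 in WT, 1403, 910 and 1040 in Tet2 KO, and 1153, 814 and 1416 in Traf6 KO. Values in dKO were 584, 217 and 270. It was 3.44-fold lower in dKO (log2 -1.78, SE 0.36, limma adjusted p = 0.00226), with every dKO library below every library of the other genotypes. Polr3b, its partner in the cleft, was at 2524, 3251 and 3385 in WT and 1682, 605 and 756 in dKO, 3.30-fold lower (limma adjusted p = 0.00215). Polr3e, which encodes a subunit of the polymerase III pair that acts in initiation and termination, was at 2302, 2380 and 2674 in WT and 2023, 1277 and 649 in dKO. It was the last of the 7 lower genes (2.06-fold, limma adjusted p = 0.0216), and its call was lost when WT replicate 2, WT replicate 3 or dKO replicate 3 was left out.

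These 7 transcripts (Polr1a, Polr1b, Polr2a, Polr2b, Polr3a, Polr3b, Polr3e) were 3998 to 9216 nt long, and all genes of such length tended to fall in dKO. Among 3995 tested genes over 4000 nt, 58.3% were called lower and the median log2 change was -1.39. The 7 subunit genes over 4000 nt, which include the uncalled Polr3f and leave out Polr1b (3998 nt), had a median of -1.72 and 6 lower calls. On the values with the trend taken off, only Polr1b among the 28 was lower in dKO against WT (log2 -0.90, SE 0.28, limma adjusted p = 0.0335). That call was lost when any 1 of 5 libraries was left out (each WT library, dKO replicate 2 and dKO replicate 3) and with the replicate block. Polr3a (-0.59, adjusted p = 0.0606) and Polr3b (-0.52, adjusted p = 0.0829) did not pass by limma on those values, and Polr1a was at -0.02 and Polr2a at -0.21.

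**Figure D3:**
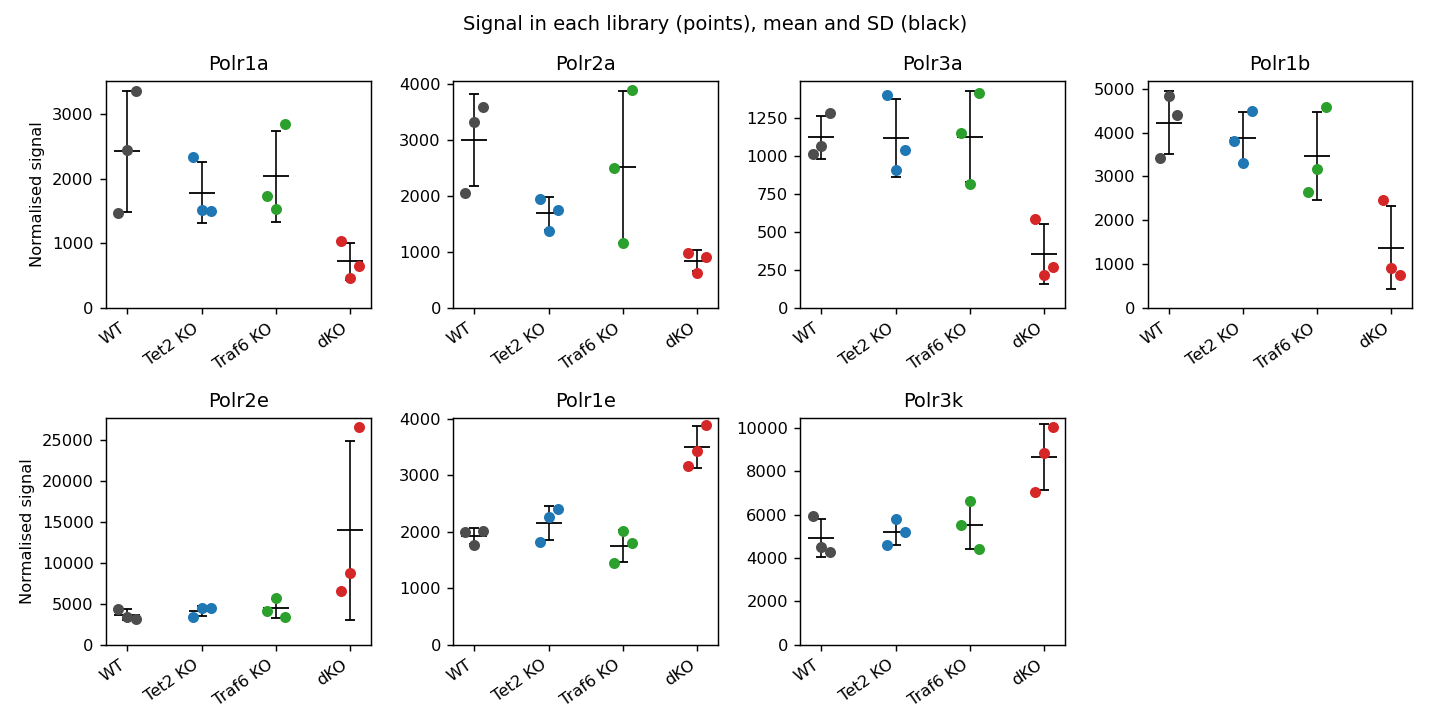
Normalised signal of 7 subunit genes in each library (points) by genotype, with the mean and SD in black and a linear axis from 0. The dKO points lie below all other genotypes for Polr1a, Polr2a, Polr3a and Polr1b, and above all other genotypes for Polr2e, Polr1e and Polr3k.

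As deposited, 4 of the 5 small subunits shared by all enzymes rose. Polr2e was at 4423, 3436 and 3161 in WT, 3413, 4464 and 4525 in Tet2 KO, and 4110, 5749 and 3427 in Traf6 KO. The dKO libraries read 6581, 8782 and 26542. All 3 dKO libraries stood above the other 9, with replicate 3 far out, and the rise was 3.17-fold (log2 1.67, SE 0.41, limma adjusted p = 0.00582). Polr2f was at 921, 688 and 724 in WT and 1442, 1736 and 8806 in dKO (log2 1.86, limma adjusted p = 0.0125). Polr2h, whose window with an E-box is printed above, was at 923, 756 and 645 in WT and 1194, 1493 and 5356 in dKO (log2 1.47, limma adjusted p = 0.0178). In both, the lowest dKO library was above the highest WT library and replicate 3 was far above the other dKO libraries. The call of Polr2h was lost without WT replicate 2 or WT replicate 3. Polr2k was at 24.8, 16.0 and 5.77 in WT and 39.4, 58.7 and 144.8 in dKO (log2 2.30, SE 0.69, limma adjusted p = 0.0159), a rise that was not called without WT replicate 3 or without dKO replicate 3. Polr2l differed from these 4: it was at 228, 279 and 307 in WT and 369, 528 and 481 in dKO (log2 0.75, limma adjusted p = 0.0687). Its dKO libraries were all above WT, yet the difference did not pass, and copies of 204 nt in 2 processed pseudogenes and of 382 nt in Usp50 make its counts uncertain. Of these 5, Polr2e alone was higher once the trend was taken off (log2 0.53, SE 0.18, limma adjusted p = 0.044), a call lost when any 1 WT library, dKO replicate 2, dKO replicate 3 or the first library of both single knockouts was left out.

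Of the small polymerase II subunits, Polr2d, which forms the detachable stalk with Polr2g, was at 2953, 2060 and 1879 in WT and 3800, 5406 and 11014 in dKO (log2 1.44, SE 0.35, limma adjusted p = 0.00586). Polr2j, which pairs with Polr2c to start assembly of the enzyme, was at 826, 577 and 566 in WT and 1314, 1763 and 6244 in dKO (log2 1.91, SE 0.48, limma adjusted p = 0.00675). Neither gene's groups overlapped. Polr2g (log2 1.74), Polr2i (1.98) and Polr2c (1.32) rose too, at limma adjusted p of 0.0127, 0.00889 and 0.0121. Without the trend these 5 lay at 0.29 to 0.65 log2 units and none passed. Polr2i shares 325 exon bases with Tbcb on the other strand, and Tbcb also rose in dKO (log2 1.75, limma adjusted p = 0.0077). The library kit does not mark strand, so reads of the pair could not be told apart. Polr2c shares 953 exon bases with Dok4, which fell (log2 -1.56, limma adjusted p = 0.0379). Such overlaps with a gene on the other strand ran from 57 to 953 exon bases where they occurred.

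The pair shared by polymerases I and III, which takes the place that Polr2c and Polr2j hold in polymerase II, rose as well. Polr1d was at 1076, 752 and 716 in WT, 672, 902 and 1040 in Tet2 KO, and 860, 1154 and 608 in Traf6 KO. The dKO signals were 1340, 1813 and 5022 (log2 1.46, SE 0.43, limma adjusted p = 0.0134). Polr1c was at 1568, 1092 and 1138 in WT and 2073, 2073 and 5810 in dKO (log2 1.23, limma adjusted p = 0.014). For both genes all 3 dKO libraries stood above the other 9. The call of Polr1d was lost without WT replicate 3 and that of Polr1c without WT replicate 2. Their changes were 0.37 and 0.23 once the trend was taken off and did not pass.

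Polr1e and Polr3k were among the 4 genes that rose in dKO both as deposited and with the trend taken off. Polr1e (chr4:45018583-45036565) encodes PAF53, a polymerase I subunit that helps the enzyme engage the ribosomal gene promoter. Its signals were 1997, 1758 and 2012 in WT, 1815, 2263 and 2395 in Tet2 KO, and 1442, 2005 and 1794 in Traf6 KO. Values in dKO were 3154, 3428 and 3893. The dKO libraries were close together and above the other 9, 1.81-fold over WT as deposited (log2 0.86, SE 0.22, limma adjusted p = 0.00663) and 2.30-fold with the trend taken off (log2 1.20, SE 0.23, limma adjusted p = 0.00299).

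Polr3k (chr2:181864337-181870830), a small polymerase III subunit needed for RNA cleavage and termination, was at 5945, 4514 and 4295 in WT, 4596, 5806 and 5189 in Tet2 KO, and 5502, 6630 and 4415 in Traf6 KO. The dKO signals were 7036, 8846 and 10048. Its change was 0.81 as deposited (SE 0.23, limma adjusted p = 0.0111) and 0.96 with the trend taken off (SE 0.23, adjusted p = 0.0104). The as-deposited call of Polr3k was lost without WT replicate 3 (adjusted p = 0.052) and with equal library totals (adjusted p = 0.0673). On the values without the trend, Polr1e and Polr3k stayed called when any 1 WT or dKO library was left out. Polr1e and Polr3k share no exon bases with another gene of GENCODE M21. As deposited, Polr3g (3054 nt) was at -0.19 log2 units (SE 0.32), while Polr1e (2986 nt) and Polr3k (2948 nt) were at 0.86 and 0.81. The difference between these genes was not tested.

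**Figure D4:**
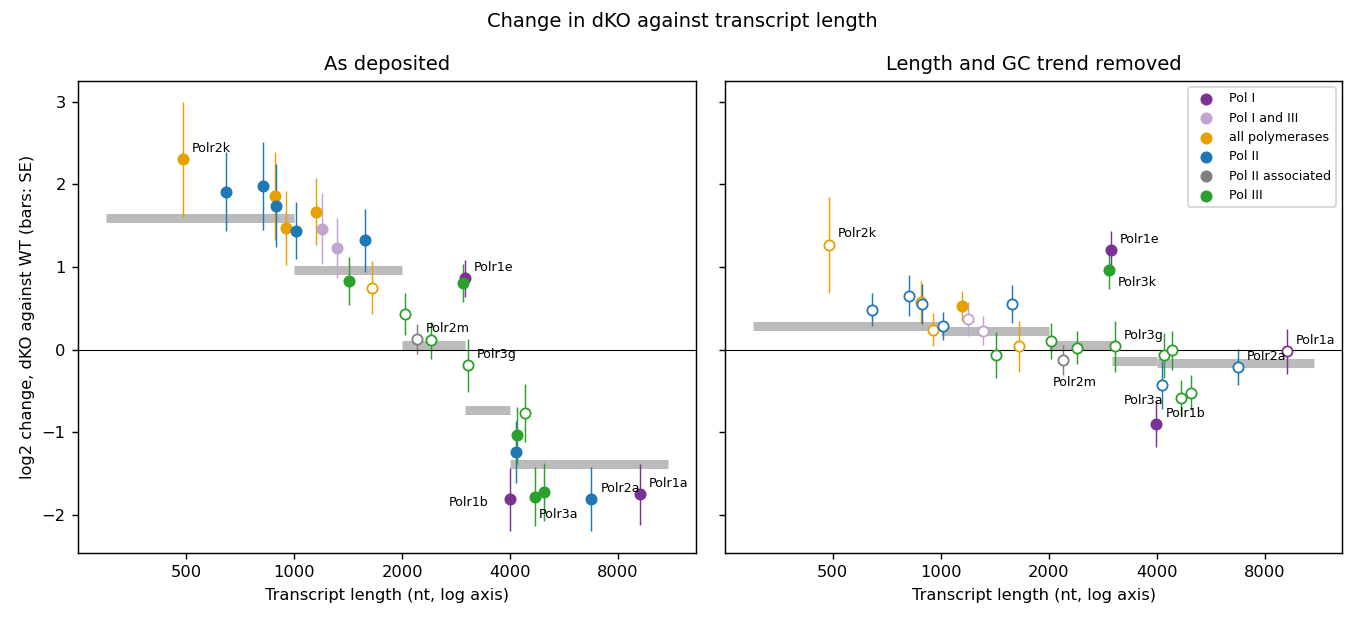
Log2 change in dKO against WT of subunit genes (points, bars SE) over transcript length on a log axis, as deposited (left) and with the length and GC trend taken off in each library (right). Filled points passed limma's adjusted threshold, open points did not, and grey bars are the median of all tested genes in the same length band. At right Polr3k and Polr1e stand at 0.96 and 1.20, above the median of all genes in their length band (0.05).

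The order of the 28 changes followed length closely. The rank correlation of change with transcript length in dKO against WT was -0.94 over the 28 genes and -0.66 over 13670 genes (points share the same libraries, and this is a description). By length, 6 of 6 subunit genes up to 1000 nt were called higher (53.1% of all tested genes of that length), 6 of 7 over 1000 and up to 2000 nt (51.1%), 3 of 6 over 2000 and up to 3000 nt (17.0%) and none of the 9 longer ones (6.89% of genes over 3000 and up to 4000 nt and 3.88% of longer genes). With the trend taken off, the higher calls were 0 of 6 (11.6%), 1 of 7 (12.6%) and 3 of 6 (14%) in these bands, and again none of the 9 longer ones (14.1% and 16.8%). In dKO replicates 1, 2 and 3 the median of the subunit genes up to 2000 nt stood 0.75, 1.12 and 2.80 log2 units over the WT mean. The same median ran from -0.19 to 0.66 in the other 9 libraries, so dKO replicate 1 was the nearest to them. The rank correlation without the trend was still -0.66 over the 28 genes, against -0.10 over all genes. In the single knockouts, whose changes were small, it was -0.58 (Tet2 KO) and -0.71 (Traf6 KO) as deposited, and 0.22 and 0.13 with the trend taken off.

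Ratios of signal per 1000 nt within a library were read for subunits that pair in the enzymes, and they were not tested. Polr3a to Polr3b was 0.393 ± 0.0402 in WT and 0.376 ± 0.00631 in dKO (SD, n = 3), and Polr1a to Polr1b was 0.245 ± 0.0755 and 0.261 ± 0.103, differences smaller than the spread between libraries. Polr2a to Polr2b was 0.143, 0.239 and 0.238 in WT, 0.143, 0.108 and 0.122 in Tet2 KO, and 0.169, 0.0785 and 0.227 in Traf6 KO. Values in dKO were 0.0755, 0.113 and 0.295, so 2 dKO libraries lay below the WT range and 1 above it. The stalk pair Polr2d to Polr2g stood at 1.57 ± 0.135 in WT and at 1.52, 1.75 and 0.755 in dKO, where replicate 3 was the low one.

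The remaining polymerase III genes passed in neither direction in dKO against WT, apart from Polr3gl. Polr3c (log2 0.11) and Polr3f (-0.77, limma adjusted p = 0.0853) encode 2 members of the trio, with the product of Polr3g or Polr3gl, that opens the promoter, and Polr3d (0.43, adjusted p = 0.174) pairs with Polr3e. Polr2m, the polymerase II associated gene, was at 10771 to 11018 in WT and 12245, 12546 and 10952 in dKO, overlapping groups (log2 0.13, limma adjusted p = 0.565). The signs of Polr2m, Polr3c and Polr3g turned with the scaling or the trend, so no direction is given for them.

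Polr3g and Polr3gl are paralogues that fill the same place in polymerase III, so that an enzyme holds the product of only 1 of them; the Polr3g form is known from stem and tumour cells and the Polr3gl form from most tissues. Polr3g (chr13:81673843-81711013) was at 895, 815 and 983 in WT, 849, 1068 and 1200 in Tet2 KO, and 873, 1722 and 935 in Traf6 KO. The dKO libraries read 1108, 737 and 595, and all 4 groups overlapped. Polr3gl (chr3:96577872-96594181) was at 249, 162 and 242 in WT, 470, 636 and 551 in Tet2 KO, and 316, 352 and 314 in Traf6 KO. The dKO signals were 345, 386 and 411. For Polr3gl, all 9 knockout libraries lay above all 3 WT libraries, and the Tet2 KO libraries lay above the rest.

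The change of Polr3gl in Tet2 KO against WT was 1.35 log2 units (SE 0.29, limma adjusted p = 0.0641), the largest of the 28 in that comparison, and it did not pass. Alternatives fell on both sides of the threshold: DESeq2 gave an adjusted p of 2.98e-05, edgeR 0.0681, limma 0.0349 without dKO replicate 3, limma with the replicate block 0.109, and limma without the first library of each single knockout 0.0743. Its change was 1.22 with the trend taken off (limma adjusted p = 0.082). In dKO against WT the change was 0.83 as deposited (limma adjusted p = 0.0293) and -0.07 with the trend taken off (adjusted p = 0.877), so its direction there depends on the length correction. The as-deposited call was also lost without WT replicate 2, WT replicate 3 or dKO replicate 2, with equal library totals, with no filter on low values and with only the compared groups in the fit. On the values with the trend taken off, Polr3gl was lower in dKO than in Tet2 KO (log2 -1.29, SE 0.28, limma adjusted p = 0.0172; -1.31 and 0.0989 without the first library of each single knockout), while as deposited that difference was -0.53 (adjusted p = 0.159). Per 1000 nt, the ratio of Polr3gl to Polr3g was 0.596, 0.426 and 0.528 in WT, 1.19, 1.27 and 0.982 in Tet2 KO, and 0.776, 0.437 and 0.719 in Traf6 KO. Values in dKO were 0.667, 1.12 and 1.48. Tet2 KO and dKO ratios were above every WT ratio, and Traf6 KO overlapped WT. The ratios are as deposited and set a transcript of 1427 nt against one of 3054 nt, so the length trend of dKO enters them. With the trend taken off, Polr3gl and Polr3g were at -0.07 and 0.04 log2 units in dKO against WT. In Tet2 KO against WT they were at 1.22 and 0.23.

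**Figure D5:**
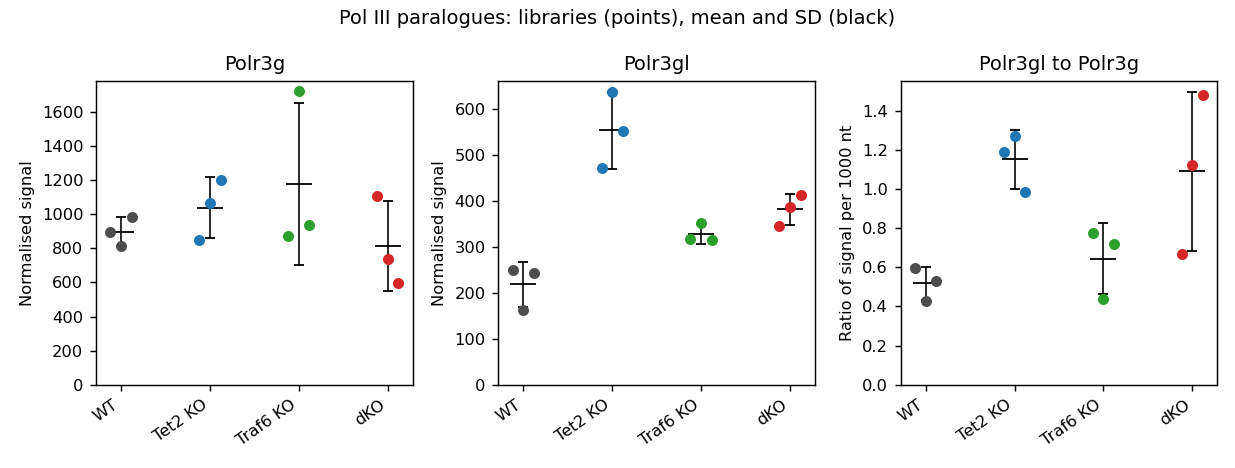
Normalised signal of the paralogues Polr3g (left) and Polr3gl (middle) and their ratio per 1000 nt of transcript (right) in each library (points), with mean and SD in black, by genotype. Polr3gl is at 162 to 249 in WT and at 470 to 636 in Tet2 KO, while the genotypes overlap for Polr3g.

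The dKO was also set against each single knockout. These comparisons share the dKO libraries with the one against WT, as the comparisons against WT share its libraries. Against Tet2 KO, 14 subunit genes were higher and 5 lower by limma (15.5% and 19.9% of all tested genes), and against Traf6 KO 13 were higher and 7 lower (17.3% and 20.7%). Groups did not overlap for 15 higher and 6 lower genes against Tet2 KO (22% and 24.2% of tested genes) and for 14 and 6 against Traf6 KO (23.2% and 21.8%). Polr3a, for instance, differed by -1.76 log2 units in both (limma adjusted p = 0.00826 and 0.00455), and by -1.58 and -1.72 without the first library of each single knockout (0.0703 and 0.0292). Polr1e differed by 0.70 and 1.01 (limma adjusted p = 0.0262 and 0.00564), and by 0.58 and 0.87 without those libraries (0.115 and 0.0353). Polr2a was called lower against Traf6 KO (log2 -1.43, limma adjusted p = 0.0163) and did not pass against Tet2 KO (-1.01, adjusted p = 0.0569), and neither did Polr3e (-0.88, adjusted p = 0.0556). Without the trend, 3 were higher and 2 lower against Tet2 KO (6.79% and 4.68%), among them Polr1e at 1.06, Polr3k at 0.81, Polr3gl at -1.29 and Polr3a at -0.83. Without dKO replicate 2 none of these 5 calls remained, and the calls over all genes fell to 0.249% higher and 0.41% lower. Against Traf6 KO, 2 were higher and 1 lower (6.8% and 8.61%), among them Polr1e at 1.21 and Polr3a at -0.85. Without the first library of each single knockout, the calls on the values without the trend were 0 and 0 against Tet2 KO by limma (8 subunit genes at an unadjusted p under 0.05; 0.212% and 0.146% of all genes called) and 1 and 0 against Traf6 KO (1.87% and 3.41%), the 1 being Polr1e (log2 1.04, limma adjusted p = 0.0346). With equal library totals the split against Tet2 KO was 10 higher and 9 lower (10.3% and 24.3% of all genes). The as-deposited counts rested on single libraries, and the calls over all genes moved with them. Against Tet2 KO, 0 subunit genes were higher and 2 lower without Tet2 KO replicate 1 (1.49% and 4.77% of all genes), and 5 were higher without Tet2 KO replicate 2 (9.69%) or without dKO replicate 3 (8.92%). The lower calls there numbered 3 without dKO replicate 2 (12.6%) and 8 without dKO replicate 1 (26.4%). Against Traf6 KO, 1 gene was higher without Traf6 KO replicate 1 (3.73%) or without Traf6 KO replicate 3 (3.11%), 2 were lower without Traf6 KO replicate 3 (11.7%), and 5 were higher without dKO replicate 3 (6.13%). With the first library of both single knockouts left out together, in which the targeted gene was at the WT level, there were 0 and 0 calls against Tet2 KO by limma (16 genes at an unadjusted p under 0.05; 0.189% and 0.218% of all genes called) and 1 and 3 against Traf6 KO (2.01% and 10.6%). In that fit both single knockouts still had 0 calls against WT.

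The interaction asks whether loss of Traf6 acted differently with and without Tet2. By limma it was called for 0 of 28 subunit genes in either direction (0.107% and 0.114% of all tested genes), 10 had an unadjusted p under 0.05, and edgeR and DESeq2 called 0. The estimates ran from -1.74 for Polr3a (limma adjusted p = 0.210) to 1.46 for Polr2f (adjusted p = 0.285). With the trend taken off limma again called 0 in either direction (0.0951% of all genes in each), with 3 at an unadjusted p under 0.05. Without dKO replicate 1, 4 subunit genes were called positive and 4 negative as deposited, where 5.29% and 12.4% of all genes were called.

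Subunits that carry other symbols in the table were read as a separate list. Twistnb, Cd3eap and Znrd1 encode polymerase I subunits and Crcp a polymerase III subunit. As deposited 3 of the 4 rose in dKO (21.9% of all genes were higher): Crcp (log2 1.43, limma adjusted p = 0.00127), Cd3eap (1.14, 0.0127) and Znrd1 (1.52, 0.0406, with libraries at 802, 1068 and 6032). After the trend was taken off 3 rose as well (14.3% of all genes), namely Twistnb (1.17, limma adjusted p = 0.00316), Cd3eap (1.03, 0.0173) and Crcp (0.59, 0.0392). Cd3eap encodes the partner of Polr1e in the PAF49 and PAF53 pair, and its signals were 750, 818 and 808 in WT and 1292, 1443 and 2870 in dKO. Twistnb, whose product forms the polymerase I stalk, was at 2273 ± 155 in WT and 3112 ± 183 in dKO (SD, n = 3) and did not pass as deposited (log2 0.45, adjusted p = 0.0884).

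The wider transcription machinery was read in 6 lists, counted in dKO against WT as deposited beside the 21.9% and 26.5% of all genes. Of 9 polymerase I factors 2 were higher and 6 lower (median log2 -0.84). Ptrf, which helps release transcripts, fell (-1.89, limma adjusted p = 0.000718), as did Tcof1 (-1.71, 0.00323), while Taf1d rose (1.16, 0.0138). Of 32 general initiation factors of polymerase II 16 were higher and 6 lower (median 0.66), among them the TFIID subunit gene Taf1 and Gtf2a1, both lower (-2.06 and -1.89), and the TFIIH subunit gene Gtf2h2, higher (1.27). Of 28 pausing and elongation factors 8 were higher and 9 lower (median -0.22), and the smallest p belonged to lower genes: Aff1 (-1.89), a scaffold of the super elongation complex, Supt6h (-2.47), a histone chaperone that travels with the enzyme, and Ccnt2 (-1.55), a cyclin of the pause-release kinase.

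Of 33 Mediator genes, 13 were higher and 10 lower (median 0.13), and Med12, a subunit gene of the kinase module, had the largest named change (-3.58, limma adjusted p = 0.000311). Its signal was 1498, 2211 and 1956 in WT, 1042, 293 and 516 in Tet2 KO and 228, 104 and 156 in dKO. Med12 stayed lower with the trend taken off (-1.99, limma adjusted p = 0.000761), as did Med23 (-1.20, 0.00329), while Med12l was at -2.25 as deposited. Of 17 polymerase III factors 6 were higher and 5 lower (median 0.49). Ssb, which encodes the La protein that binds the ends of polymerase III transcripts, rose from 11169 ± 266 to 24622 ± 3841 (log2 1.13 as deposited and 0.93 with the trend taken off, limma adjusted p = 0.000733 and 0.00402), and the TFIIIC genes Gtf3c4 (-2.55) and Gtf3c1 (-1.95) fell. Of 13 genes for assembly and import of the polymerases 6 were higher and 2 lower (median 0.58), with Ruvbl2 (1.21) and Gpn3 (1.11) higher and Rpap1 (-2.11) lower. With the trend taken off, the higher and lower calls in the 6 lists, in this order, were 1 and 1, 11 and 3, 4 and 1, 7 and 3, 3 and 2, and 2 and 0 (14.3% and 10.7% of all genes). Of the genes named from these lists, 8 lost their calls then: Tcof1 (-0.31), Taf1d (0.29), Aff1 (-0.24), Ccnt2 (-0.31), Med12l (-0.63), Gtf3c1 (-0.27), Rpap1 (-0.59) and Gpn3 (0.36), at limma adjusted p of 0.076 to 0.56.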

How the data were processed

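RNA of sorted mouse LSK cells was measured in 12 libraries. Per the labels' protocols, full-length cDNA was made with a SMART-Seq low-input kit and sequenced on a HiSeq 4000. Tools listed in the submitters' processing notes are STAR, featureCounts, DESeq2 and bcl2fastq, with builds GRCm38 and mm10; their versions, the annotation and the strand setting are not given in the sources used here. The authors deposited a normalised signal, reads divided by a size factor per library. Whole reads were recovered for 100% of values (tolerance 1e-06), 22169673 to 53921402 per library. Genotypes were compared with limma (version 3.58.1 under R 4.3.3, trend and robust) on log2(value + 1). It covered the 14045 genes that reached 10 in 3 or more libraries, with all 4 groups in 1 fit without covariates, Benjamini-Hochberg adjustment over all tested genes and a threshold of 0.05. Folds are on that scale, which understates low genes.

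Transcript length and GC content came from GENCODE M21, at hand for 13670 tested genes (97.3%), and the trend was a loess curve of span 0.3 per library. Each gene was represented by a single annotated transcript. Transcripts tagged as principal were preferred, then protein-coding ones, then the longest. Which transcript these cells use was not tested, and levels per 1000 nt, length bands and the trend rest on this choice. Level per 1000 nt is signal divided by that length. Alternatives were an offset of 5, no filter, equal totals, edgeR 4.0.16 and DESeq2 1.42.0 on the reads, the compared groups alone, libraries left out and a replicate block. Trend removal with libraries left out was chosen after seeing the data. The limma step was tested on simulated data. Every subunit gene is in the counts, 1 of them is not reported here by its own values, and values per library are given for catalytic, shared and paralogous subunits and for up to 8 called genes with the smallest p per comparison, with up to 3 genes per machinery list by p. The set of genes and the lists were proposed with earlier results of these data known, although the rule that picks the subunit genes is by name alone.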

Additional observations from a re-analysis of the deposited data

How the results depend on the processing

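Counts of subunit genes called are given as higher and lower, by limma unless a tool is named. Shares of all genes called in the same fit follow in brackets. In dKO against WT the 15 and 7 calls (21.9% and 26.5%) became 15 and 7 with an offset of 5 (22.4% and 26.6%) or edgeR (22.1% and 24.5%). They became 16 and 7 with DESeq2 (26.9% and 26.3%) and 14 and 7 without the filter (11.8% and 14.6%). Equal library totals gave 13 and 7 (16.3% and 29.6%), and the compared groups alone 11 and 5 (15.9% and 22.8%). Leaving out 1 library gave 10 to 16 higher (14.1% to 25.6%) and 6 to 8 lower (19.6% to 30%). There were 12 and 6 without WT replicate 2 (14.1% and 19.6%) and 10 and 6 without WT replicate 3 (14.2% and 19.9%). In at least 1 of the fits without 1 library, 7 of the 22 calls were lost (Polr1c, Polr1d, Polr2h, Polr2k, Polr3e, Polr3gl, Polr3k). With the length and GC trend taken off the counts were 4 and 1 (14.3% and 10.7%). They were then 3 and 0 without any 1 WT library, dKO replicate 2 or dKO replicate 3 (7.86% to 13.6% and 5.45% to 9.1%). Without dKO replicate 1 they were 7 and 4 (16.9% and 14.9%). Without the first Tet2 KO and Traf6 KO libraries they were 3 and 1 (13.6% and 9.56%).

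In Tet2 KO against WT, 1 gene (Polr3gl) was higher with DESeq2 (0.634% of all genes) and with the compared groups alone (0.57%). It was also higher without dKO replicate 3, with the trend (0.188%) or without it (0.249%). The range over libraries left out was 0 to 1. In Traf6 KO against WT 0 were called throughout, where at most 0.534% of all genes were higher and 0.655% lower. Against Tet2 KO the 14 and 5 calls (15.5% and 19.9%) became 9 higher without the filter (6.9%) and 9 lower with equal totals (24.3%). They became 0 and 0 with the compared groups alone (0.273% and 0.19%). They were also 0 and 0 without the first Tet2 KO and Traf6 KO libraries (0.189% and 0.218%). Leaving out 1 library gave 0 to 15 higher (1.49% to 21.8%) and 2 to 8 lower (4.77% to 26.4%). The trend taken off gave 3 and 2 (6.79% and 4.68%), then 2 and 2 without any 1 WT library (4.46% to 4.87% and 2.83% to 3.09%). It gave 4 higher without dKO replicate 1 (12.2%) and 2 and 1 without dKO replicate 3 (4.18% and 3.05%). The counts were 0 and 0 without dKO replicate 2 (0.249% and 0.41%) or without both first libraries (0.212% and 0.146%). Against Traf6 KO the 13 and 7 calls (17.3% and 20.7%) became 7 higher without the filter (6.45%). They became 0 and 2 with the compared groups alone (0.827% and 8.17%) and 1 and 3 without both first libraries (2.01% and 10.6%). The range over libraries left out was 1 to 13 higher (3.11% to 23.5%) and 2 to 8 lower (11.7% to 26.3%). The trend taken off gave 2 and 1 (6.8% and 8.61%), then 1 and 1 without any 1 WT library or dKO replicate 3 (3.95% to 5.05% and 6.01% to 6.78%). It gave 4 and 4 without dKO replicate 1 (11.9% and 14.2%). The counts were 1 and 0 without dKO replicate 2 (3.34% and 5.66%) or without both first libraries (1.87% and 3.41%). The interaction had 0 to 4 calls in each direction over libraries left out. Without dKO replicate 1 there were 4 and 4 (5.29% and 12.4%), or 1 and 3 with the trend also taken off (1.87% and 3.83%). Fewer libraries also mean fewer degrees of freedom, and the cause of each loss was not tested.

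Deviations of same-numbered libraries correlated at -0.18 to 0.19 and those of differently numbered libraries at -0.19 to 0.22. The replicate numbers thus gave no sign of pairing, although such correlations cannot show that the libraries were unpaired. A fit with the replicate number as a block gave 15 and 7 in dKO against WT (21% and 25.8% of all genes). It gave 13 and 6 against Tet2 KO (14.2% and 18.8%) and 12 and 6 against Traf6 KO (15.2% and 19.8%). Block and trend removal together gave 3 and 0, 3 and 2, and 2 and 1 in these comparisons. The block, and leaving out both first libraries, also left the signs below as trend removal alone did.

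Signs turned in genes near 0 as deposited (Polr2m, Polr3c, Polr3g) and in some further from it (Polr1a -1.75, Polr3e -1.04, Polr3gl 0.83, Polr3f -0.77, Polr2l 0.75). In dKO against WT, Polr2m was at -0.12 with equal totals and -0.13 with the trend taken off (-0.21 to -0.11 there without 1 library: -0.15, -0.11, -0.12, -0.21 and -0.18), and so was the Pol II associated median, which is this gene alone. Polr3c was at -0.14 with equal totals, between -0.08 (without dKO replicate 1) and 0.23 (without dKO replicate 3) over libraries left out, and -0.04 and -0.19 with the trend taken off without WT replicate 1 and dKO replicate 1. Polr3g was between -0.43 (without dKO replicate 1) and 0.01 (without dKO replicate 3) over libraries left out and, with the trend taken off, at 0.04 in all libraries and at 0.12, 0.05 and 0.18 without WT replicate 3, dKO replicate 2 and dKO replicate 3. Polr3gl was at -0.07 with the trend taken off, and at -0.04, -0.23, -0.24 and -0.19 without WT replicate 1, WT replicate 2, dKO replicate 1 and dKO replicate 2. Only with the trend taken off and 1 library left out did Polr1a (0.18, 0.05 and 0.14, also the polymerase I median), Polr2l (-0.15 and -0.14), Polr3e (0.28, and 0.14 against Traf6 KO) and Polr3f (0.07, 0.03 and 0.21) turn. The polymerase III median turned to 0.02 with DESeq2, to 0.03, 0.03 and 0.12 without WT replicate 3, dKO replicate 2 and dKO replicate 3 (it was lowest, -0.26, without dKO replicate 1), to 0.01 with the trend taken off, and to 0.01, 0.07, 0.01 and 0.20 with the trend taken off without WT replicate 2, WT replicate 3, dKO replicate 2 and dKO replicate 3. Depth limits Polr2k most, at 6 to 81 reads per library.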
